A study of Mus musculus with 17 samples.

Results

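COPII coat genes and the ER cargo receptor gene Lman1 were examined in antibody-secreting cells (ASCs) sorted from mouse bone marrow. Of the 10 genes named, 9 had at least 1 probe in the probe annotation used, and these 9 genes carried 13 annotated probes. The annotation names 12989 genes and covers the probes of the authors' processed table (26509), not all 45281 on the array. Further probes of these genes may therefore carry no symbol here. Members were taken by gene symbol alone, with every annotated probe of a symbol included. Sec23b was named but had no probe assigned to its symbol. ASCs came from the hind leg marrow of mice from Charles River labs, and the young group (6-8 weeks) was compared with the aged group (over 17 months). No strain, genotype or treatment was given for these mice, and the cells were sorted after staining for surface markers. There were 9 young samples on 11 arrays, because young 3 and young 4 were each hybridised to 2 arrays, and 6 aged samples on 6 arrays. The study pooled samples where a sort gave few cells, and the labels do not say which samples are pools. Its mouse counts were 10 for the aged group and 9 for the young group. If each mouse was used once, 6 aged and 9 young samples place the pooling in the aged group. Pooling would then go together with age, and its effect on the aged spread was not tested. The p-values measure the spread between these samples. Each array was an Illumina MouseWG-6 v2 BeadChip, which reads each transcript by a bead signal in arbitrary units, given here as log2 after quantile normalisation, and 8998 to 15864 probes were detected in young and 10401 to 17120 in aged samples.

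COPII is the protein coat that forms transport vesicles on the endoplasmic reticulum (ER). The GTPase Sar1, when loaded with GTP, inserts into the ER membrane and recruits the inner coat, a pair of Sec23 and Sec24, of which Sec24 binds cargo, and the outer coat of Sec13 and Sec31 then bends the membrane and completes the bud. ASCs send large amounts of antibody through this step, and the transcription factor XBP1, made active by the unfolded protein response (UPR), is known to drive many genes of the secretory pathway in plasma cells.

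The UPR element, TGACGTGG, is the site at which XBP1 is known to bind, and ACGTGG is its inner core, which every longer match also holds. Both strands of the 300 bases around each annotated gene start (250 before and 50 after, RefSeq, build GRCm38.p6) were searched for these letters. The inner core was found for 6 of the 9 member genes with a window, Sec24d, Sec23a, Sec24c, Sec13, Sec31a and Sar1a. By window, 8.31% of all 32851 windows held it, or 11% of the windows of genes tested on the array. The 9 member genes include Sec23b but not Lman1. Sec23b and Sec31a had 2 windows each, so the count of genes and the share of windows are unlike measures. Sec24d and Sec23a held the full 8 letters, which 0.676% of all windows held. These 6 stretches of 46 bases are shown because they place the core in each promoter, with the matched letters in capitals and the gene's own strand read 5′ to 3′.
Sec24d, chr3:123267452-123267497, + strand, core from base -24: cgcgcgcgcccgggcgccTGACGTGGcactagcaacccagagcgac
Sec23a, chr12:59011984-59012029, - strand, core from base 9: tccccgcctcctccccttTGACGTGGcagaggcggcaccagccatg
Sec24c, chr14:20674226-20674271, + strand, core from base -75: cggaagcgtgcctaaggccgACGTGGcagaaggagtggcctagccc
Sec13, chr6:113740658-113740703, - strand, core from base -2: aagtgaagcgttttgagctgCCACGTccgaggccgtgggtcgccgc
Sec31a, chr5:100416196-100416241, - strand, core from base 14: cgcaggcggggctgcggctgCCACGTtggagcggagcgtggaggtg
Sar1a, chr10:61680108-61680153, + strand, core from base -157: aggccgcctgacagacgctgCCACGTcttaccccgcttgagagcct
For Sec31a, which has 2 annotated starts, the upstream one is shown. Capitals written CCACGT are the inner core on the opposite strand. Neither the ER stress response element (CCAAT, then CCACG after 9 bases, 0.119% of windows) nor its second form (ATTGG, 1 base, CCACG, 0.0365% of windows) was found in a member window. Sec24a (window chr11:51756785-51757084), Sar1b (chr11:51763413-51763712) and both windows of Sec23b held none of these letters. Sec24a and Sar1b lie next to each other on chromosome 11 on opposite strands with no annotated gene between them. A match is a description of letters, and binding was not measured.

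Probes entered the test if 8 or more of the 15 samples had a detection p under 0.05 and the signal spanned at least 1.2-fold. By this rule 9 member probes of 8 genes were tested among 11073 probes. All 9 had a higher mean in aged ASCs, where 48.2% of all tested probes did. With no filter on dim probes 11 of the 13 annotated member probes did, and the Sec23a probe (-0.23) and the second Sec24c probe (-0.06) were lower. The median difference of the 9 was 0.50 (log2, aged minus young) against -0.01 over all tested probes. None of the 9 passed an adjusted p of 0.05 (limma with Benjamini-Hochberg adjustment over 11073 probes), where 1.38% of tested probes passed in either direction. At an unadjusted p under 0.05, 4 of the 9 were higher in aged ASCs, Sec24a, Lman1, Sar1a and Sec24d, where 8.81% of tested probes were. In 2 of the 9, Sec24a and Sec24d, all 6 aged samples lay above the young median, which held for 8.25% of tested probes. Undetected probes had a median of 7.89 to 7.94 in all samples on the log2 scale. Sec31a, Sec24a and Lman1 lay nearest to it at means of 8.53, 8.54 and 8.64, with 36.2% to 45.2% of tested probes dimmer, while 53.7% to 76.3% were dimmer than each of the other 6 member probes. The median difference of the 9 was 1.00 in place of 0.50 after a background correction (normexp).

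**Figure D1:**
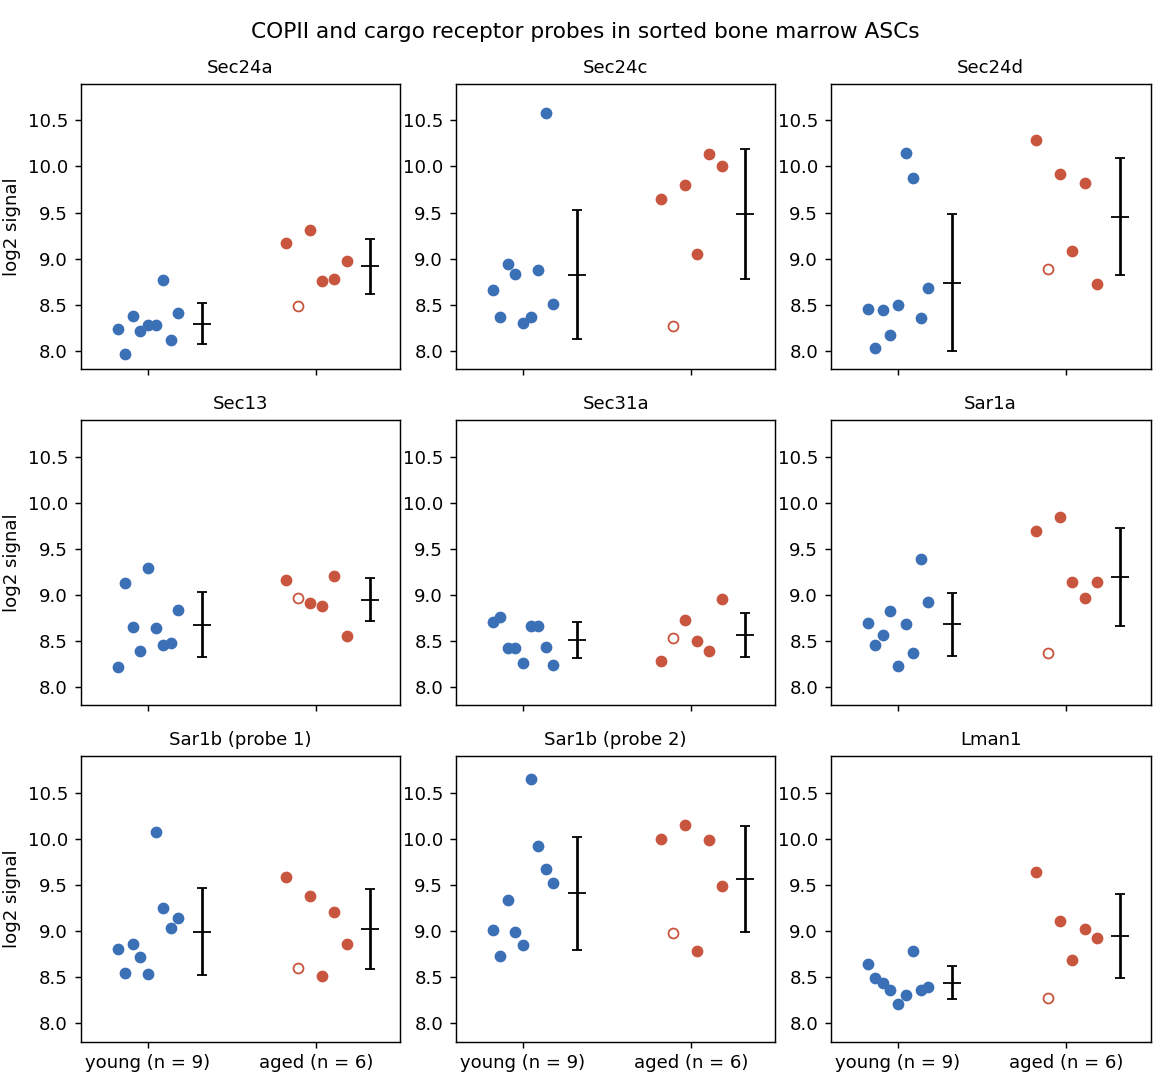
Log2 signal of the 9 tested member probes in each of the 9 young (blue) and 6 aged (red) samples, with the group mean and SD as black bars and aged 2 as an open circle. For Sec24a, 4 of 6 aged samples lie above the highest young sample, while the groups overlap widely for Sec13, Sec31a and Sar1b.

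Sec24 is the subunit of the inner coat that recognises export signals on cargo, and its paralogs bind overlapping sets of cargo. Sec24a signal ran from 7.96 to 8.77 with a median of 8.28 in young ASCs, and from 8.49 to 9.31 with a median of 8.88 in aged ASCs. The 2 groups overlapped only through young 7, the highest young sample, which lay above aged 2 and aged 4. Young ASCs averaged 8.29 ± 0.22 (SD, n = 9) and aged ASCs 8.91 ± 0.30 (SD, n = 6), a difference of 0.62 with a standard error of 0.16 or 1.54-fold. Its adjusted p was 0.0563 by limma, which placed it 165th by p among the 11073 probes, and the young signal was near background, passing detection in 5 of 9 young samples and 6 of 6 aged ones. This probe passed the threshold when aged 2 was left out (adjusted p = 0.0202, limma), when young 7 was left out (0.0313), or when the intensity trend was dropped from limma's variance estimate (0.0417).

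For Sec24d, young samples ran from 8.03 to 10.14 with a median of 8.45, and aged samples from 8.72 to 10.29 with a median of 9.46. Young 6 and young 7 stood at the level of the highest aged samples, and the other 7 young samples lay below every aged sample. The difference was 0.72 with a standard error of 0.33 (adjusted p = 0.33, limma), and over the samples left out in turn it ran from 0.55 without aged 1 (adjusted p = 0.535) to 0.89 without young 6 (adjusted p = 0.155). Sec24c ran from 8.30 to 10.58 with a median of 8.65 in young ASCs and from 8.27 to 10.13 with a median of 9.73 in aged ASCs. Here the highest sample of all, young 8, was young and the lowest, aged 2, was aged. Its difference was 0.66 with a standard error of 0.33 (adjusted p = 0.377, limma). Over the samples left out in turn it ran from 0.53 without aged 5 (adjusted p = 0.561) to 0.90 without aged 2 (adjusted p = 0.135), and the lowest adjusted p was 0.111 without young 8.

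Sec23 is the GTPase-activating partner of Sec24 in the inner coat. The 1 annotated probe for Sec23a was not tested, with detection in 3 of 9 young samples and 2 of 6 aged ones. Its signal was highest in young 6 at 9.76 and in young 1 at 8.82, while the aged samples lay between 7.72 and 8.25. Second probes for Sec24c (seen in 2 of 9 young samples and 1 of 6 aged ones), Sec24d (0 of 9 and 1 of 6) and Sec31a (0 of 9 and 4 of 6) were also too dim to be tested. These 3 second probes lay between 7.73 and 8.78 in every sample.

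In the outer coat, Sec13, a beta-propeller protein that also serves in the nuclear pore, ran from 8.22 to 9.29 with a median of 8.64 in young ASCs. In aged ASCs it ran from 8.55 to 9.21 with a median of 8.94. No aged sample lay above the highest young one, and the difference of 0.27 with a standard error of 0.19 did not pass (adjusted p = 0.574, limma). Sec31a, its rod-forming partner, ran from 8.23 to 8.76 with a median of 8.44 in young and from 8.29 to 8.95 with a median of 8.51 in aged ASCs. The groups covered nearly the same range, with a difference of 0.06, a 95% confidence interval of -0.25 to 0.36 and an adjusted p of 0.908 by limma.

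Sar1 starts coat assembly, and mice have a pair of paralogs, Sar1a and Sar1b, the human form of the latter being needed for chylomicron export in gut cells. Sar1a ran from 8.22 to 9.39 with a median of 8.69 in young ASCs, and from 8.37 to 9.84 with a median of 9.14 in aged ASCs. Aged 1 and aged 3 lay above every young sample, while aged 2 lay below all but 2 young samples. The difference was 0.51 with a standard error of 0.23 (adjusted p = 0.314, limma).

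Both Sar1b probes were detected in all 15 samples. The brighter one ran from 8.73 to 10.65 with a median of 9.34 in young and from 8.79 to 10.16 with a median of 9.74 in aged ASCs, and the highest sample was young 6. The other one ran from 8.53 to 10.08 with a median of 8.86 in young and from 8.52 to 9.59 with a median of 9.03 in aged ASCs, and young 6 was again the highest. Their differences, 0.15 with a standard error of 0.29 and 0.03 with a standard error of 0.24, did not pass (adjusted p = 0.87 and 0.973, limma). The repeat arrays of young 4 differed by 1.60 on the brighter probe, more than the SD of 0.61 among the young samples. Over all 9 tested member probes the gap between repeat arrays had a median of 0.27 for young 3 and 0.44 for young 4, against age differences of 0.03 to 0.72.

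Lman1 (also known as ERGIC-53) is a mannose-binding receptor that carries glycoproteins, including coagulation factors, from the ER to the Golgi in COPII vesicles. Its signal ran from 8.21 to 8.78 with a median of 8.39 in young ASCs and from 8.28 to 9.65 with a median of 8.98 in aged ASCs. Among the aged samples, 4 of 6 lay above the highest young sample, and aged 2 lay among the lowest young ones. Young ASCs averaged 8.44 ± 0.18 (SD, n = 9) against 8.95 ± 0.46 (SD, n = 6) for aged ASCs, a difference of 0.50 with a standard error of 0.18 (adjusted p = 0.193, limma). Over the samples left out in turn the difference ran from 0.36 without aged 1 (adjusted p = 0.373) to 0.64 without aged 2 (adjusted p = 0.058).

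**Figure D2:**
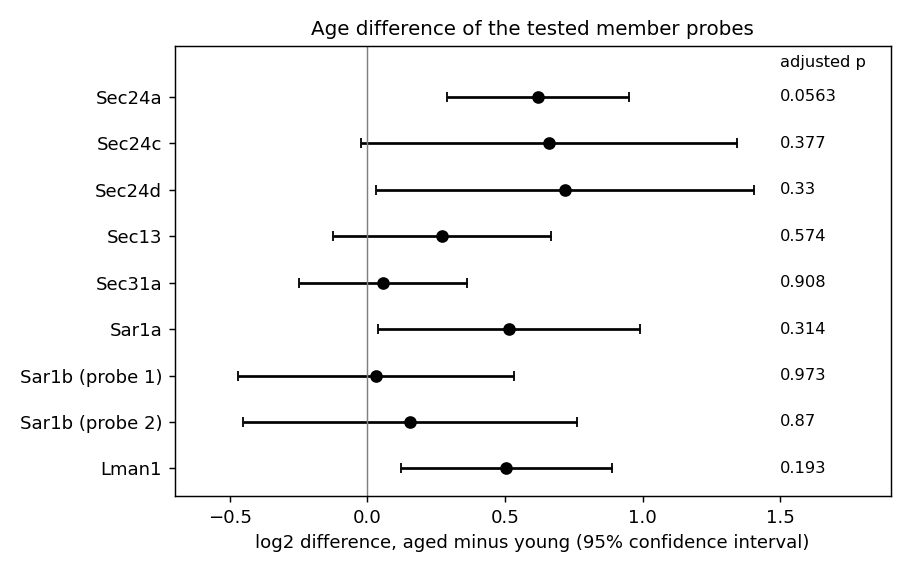
Log2 difference, aged minus young, of each tested member probe (points) with its 95% confidence interval (bars) and the adjusted p of limma over all 11073 probes at the right. All 9 points are above 0, the intervals of Sec24a, Sec24d, Sar1a and Lman1 do not include 0, and no adjusted p is under 0.05.

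Paralogs were then compared with each other. The age difference of Sar1a exceeded that of the brighter Sar1b probe by 0.36, with a 95% confidence interval of -0.29 to 1.00. An exact two-sided permutation test over all 5005 assignments of the age labels gave p = 0.262. For Sec24a against Sec24c, Sec24a against Sec24d and Sec24c against Sec24d the differences were -0.04, -0.10 and -0.06, and the interval of the last ran from -1.17 to 1.06. Of these 4 pairs none passed (exact permutation test, adjusted p = 0.931 for each), and the widths leave room for large differences between paralogs.

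**Figure D3:**
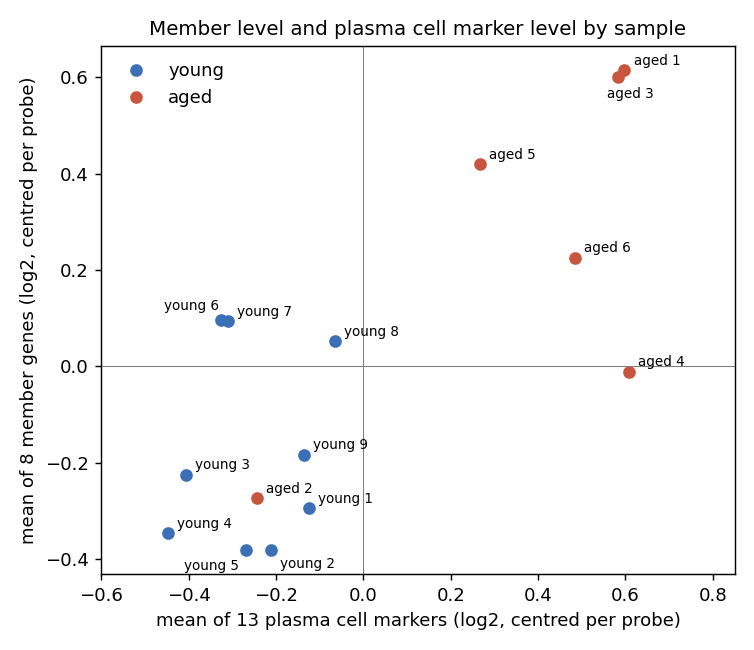
Each point is 1 sample, with the mean of 8 member genes (brightest tested probe each, centred on its mean over 15 samples, log2) against the same mean of 13 plasma cell markers. Aged 2 lies among the young samples at -0.27 and -0.24, and the other 5 aged samples lie at 0.27 or more on the marker axis.

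Member levels were set beside the level of plasma cell genes in each sample. Averaged over the 8 genes after centring each on its mean, the members ran from -0.38 to 0.10 in young samples and from -0.27 to 0.62 in aged samples. Aged 2 was the lowest aged sample at -0.27, and young 6, young 7 and young 8 were the highest young samples. The same average over 13 plasma cell markers ran from -0.45 to -0.07 in young samples and was -0.24 in aged 2 and 0.27 to 0.61 in the other 5 aged samples. Within the groups the 2 averages did not run in parallel throughout. Young 6 and young 7, the highest young samples for the members at 0.10 and 0.09, read -0.33 and -0.31 for the markers, and aged 4 read 0.61 for the markers, the highest of all samples, and -0.01 for the members. In bulk RNA of a sort, more ASCs in the sample and more of a transcript per ASC cannot be told apart.

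The cell type lists gave the following values beside these. Of 13 plasma cell markers tested, 12 had a higher mean in aged ASCs, 10 of them at an unadjusted p under 0.05 (limma). Their median difference was 0.82, against 0.51 for the brightest probes of the 8 member genes. Among these markers 2 rose, Mzb1, an ER chaperone for antibody assembly, and Xbp1. Summed signals of the list were 12050 to 15840 in young and 15960 to 22320 in aged samples. Sdc1, which encodes the sort marker CD138, was not tested, and passed detection in 5 of 6 aged samples and 1 of 9 young ones. Detection was uneven across this list. Jchain, Mzb1 and Xbp1 passed in every sample, and Cd28 in 5 of 9 young and 4 of 6 aged ones. Among precursor B cell markers 4 of 7 fell, with summed signals of 3318 to 7641 in young and 2133 to 2836 in aged samples, and among them Dntt fell by 1.65 and Igll1 fell by 1.69 in log2 signal (adjusted p = 0.00665 and 0.00688, limma). All 10 neutrophil markers were tested and none passed (at an unadjusted p under 0.05, 1 was higher and 1 was lower), with summed signals of 24460 to 56900 in young and 23510 to 49410 in aged samples. Of the basophil and mast cell markers none of 6 passed (3 lower at an unadjusted p under 0.05), with 6854 to 17370 in young and 5887 to 13830 in aged samples. No T cell, erythroid, macrophage, mature B or plasmacytoid dendritic cell marker passed. Without adjustment, at 0.05, 1 of 3 mature B markers was higher, 1 of them was lower, and 1 of 4 plasmacytoid markers was lower, while none of the 3 T cell, 3 erythroid and 3 macrophage markers was either. Cd72, a mature B marker, differed by -0.75 (adjusted p = 0.0692, limma). Some markers were not detected in 1 age group, and their lists were not uniform. Ms4a2 was seen in 0 of 9 young samples and 1 of 6 aged ones, but Cpa3 and Prss34 of the same list in 7 of 9 young samples each and in 3 and 2 aged ones. C1qc was seen in 0 young and 3 aged samples, but C1qb in 2 young and 1 aged. Cr2 was seen in 1 young and Ms4a1 in 3 young samples, neither in an aged one, but Cd37 in 3 young and 5 aged samples. The part of cell makeup in the member differences was not tested.

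Genes whose signal followed the member average most closely over the 15 samples, among 6278 other named genes, were Tmem176a (Pearson r = 0.912), Rexo2 (0.885), Txndc5 (0.875), Evi2a (0.871) and Trp53inp1 (0.856). Txndc5 encodes an ER protein disulfide isomerase, Rexo2 an oligoribonuclease and Trp53inp1 a p53-induced nuclear protein. These coefficients are descriptive, since all genes share the same samples and the groups differ in level. Within the 9 young and within the 6 aged samples alone they were 0.719 and 0.985 for Tmem176a and 0.779 and 0.818 for Txndc5.

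Neighbouring steps of the early secretory pathway were read from further lists, by the brightest tested probe of each gene. Over all 6289 named genes tested, 3056 had a higher mean in aged ASCs, 71 rose, 24 fell, and the median difference was -0.01. Of 5 other genes of the COPII coat, its assembly and ER exit sites, 3 had a higher mean, 1 was higher at an unadjusted p under 0.05 and none passed by limma, with a median of 0.16. Preb, the exchange factor that loads Sar1 with GTP, averaged 8.49 ± 0.42 (SD, n = 9) over young samples against 9.13 ± 0.16 (SD, n = 6) over aged ones, a difference of 0.65 (adjusted p = 0.115, limma). Mia3, which encodes TANGO1, an exit site protein for bulky cargo, differed by 0.51 (adjusted p = 0.41, limma), and Sec23ip, a binding partner of Sec23, by -0.23 (0.631).

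Other ER cargo receptors numbered 11, of which 8 had a higher mean, 3 were higher at an unadjusted p under 0.05 and none passed by limma, with a median of 0.10. Yipf5, a membrane protein of ER exit sites and the early Golgi, differed by 0.56, Ergic1 by 0.60 and Ergic2 by 0.54 (adjusted p = 0.0936, 0.178 and 0.254, limma). Lman2, a lectin related to Lman1, differed by 0.09 (0.962). The p24 family, which helps to select and retrieve vesicle cargo, had 4 of 5 members with a higher mean and a median of 0.41. Of them 2 were higher at an unadjusted p under 0.05 and none passed the threshold. Tmed9 differed by 0.43 and Tmed3, the gene with a lower mean, by -0.62 (adjusted p = 0.199 and 0.675, limma).

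The COPI coat and the KDEL receptors work in the opposite direction, from the Golgi back to the ER. Of 9 such genes 8 had a higher mean, 2 at an unadjusted p under 0.05, and none passed by limma, with a median of 0.31. The COPI subunit gene Cope differed by 0.94 and Arfgap2, the gene with a lower mean, by -0.40 (adjusted p = 0.16 and 0.392, limma). Tethers and SNAREs between ER and Golgi had a higher mean in 17 of 24, in 5 at an unadjusted p under 0.05, and a median of 0.11, with none past the threshold. Scfd1, a fusion factor, differed by 0.68 and Rab2a, a small GTPase, by 0.50 (adjusted p = 0.233 and 0.292, limma).

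Transcription factors of secretory genes formed the last list. All 8 had a higher mean in aged ASCs, 5 of them at an unadjusted p under 0.05 (limma), 1 rose, and the median was 0.64. Xbp1 rose from 10.88 ± 0.44 (SD, n = 9) to 11.70 ± 0.21 (SD, n = 6) in aged ASCs, a difference of 0.82 with a standard error of 0.21 (adjusted p = 0.0499, limma). It kept this call in 2 of 9 other settings and when 2 of the 15 samples were left out, and lost it otherwise, with an adjusted p up to 0.273. Prdm1, the master regulator of plasma cell identity, differed by 0.98 and Creb3l2, known to drive Sec23a in cartilage, by 0.71 (adjusted p = 0.104 and 0.138, limma). In aged 2 they read 8.31 and 8.22, below the young means of 8.46 and 8.43. For Prdm1 all 6 aged samples, aged 2 included, lay above the young median. Other genes of the pathway lists lay on either side in aged 2. Xbp1 read 11.76 there and Atf4, a factor of the stress response, 12.09, both above their aged means. Above theirs too were Cope at 11.13, Scfd1 at 10.06, Ergic2 at 10.30 and Tmed9 at 12.64. Ergic1 at 9.29, Mia3 at 9.31 and Tmed2 at 8.41 lay below their young means of 9.65, 9.475 and 8.55. Xbp1, Prdm1 and Irf4 are also among the plasma cell markers above.

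**Figure D4:**
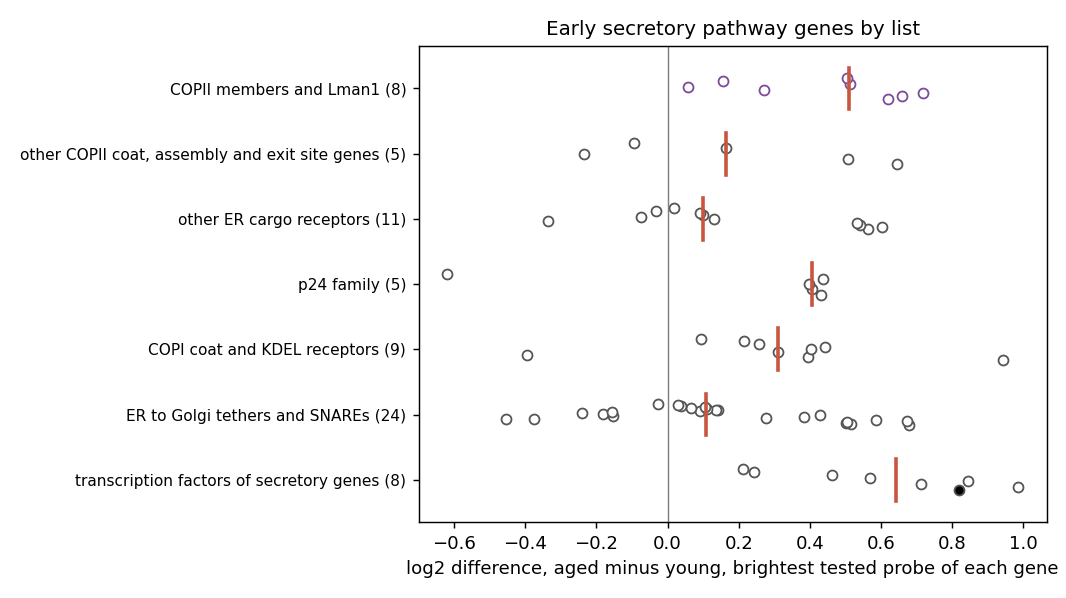
Log2 difference, aged minus young, of the brightest tested probe of each gene (points) by list, with the number of genes in brackets and the median as a red line. Xbp1, the filled point, is the 1 gene with an adjusted p under 0.05, and the medians run from 0.10 for other cargo receptors to 0.64 for the transcription factors.

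**Figure D5:**
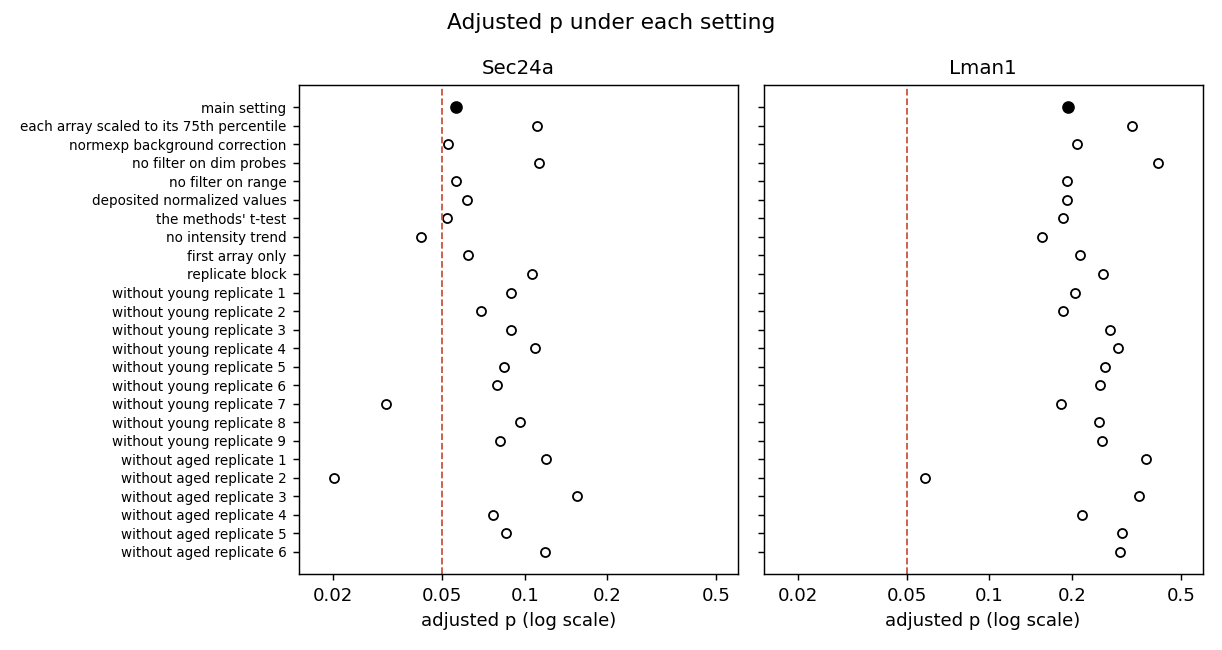
Adjusted p of Sec24a and Lman1 on a log axis under the main setting (filled) and each other setting (open), with the 0.05 threshold dashed. Sec24a passes in 3 of 24 other settings, the lowest being 0.0202 without aged 2, and Lman1 in none.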

How the data were processed

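Total RNA of sorted ASCs was amplified to cDNA, labelled with biotin and hybridised by the authors. The deposited signal table holds a linear bead intensity and a detection p-value for each of 45281 probes on 17 arrays, with no normalisation. A second deposited table of 26509 probes holds the authors' processed intensity and served as an alternative. Software and build of the signal extraction are not given in the sources used here. Raw signals were quantile normalised and put on the log2 scale, and the repeat arrays of young 3 and young 4 were averaged, as in the study's methods. A probe was detected in a sample if any of its arrays had a detection p under 0.05. Probes detected in at least 8 of 15 samples and spanning 1.2-fold were tested with limma 3.58.1 (R 4.3.3, lmFit and eBayes with an intensity trend), aged minus young, with Benjamini-Hochberg adjustment over 11073 probes. The number of arrays limits the precision. The fit was tested on simulated data.

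Symbols came from the platform's probe annotation, updated through the Entrez ID: in the processed values, 20873 probes had 1 symbol, 9 had several and 5627 had none. Probes outside the processed table were given no symbol here, so gene counts leave them out. The members and lists were chosen with earlier results of these data known. Named genes are all member probes, and in each other list the 3 smallest p-values and the brightest gene, of which the text gives a part. Irf4, Tmed3 and single undetected markers were named after their values were seen. Promoter windows were RefSeq's, credited to GRCm38.p6, and no sequence of Lman1 was used here. Alternatives were scaling to the 75th percentile, normexp correction (neqc), no filters, the processed table, the methods' t-test, no trend, first arrays only, a replicate block over samples 1 to 6, and leaving out each sample. Figures were drawn with matplotlib 3.10.9.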

Additional observations from a re-analysis of the deposited data

Results flagged for a closer look

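Among 28 groups of member values tested for a sample far from the others, 2 held one, and chance alone marks about 1 group in 20 at this level. Young 8 was the highest young sample for Sec24c at 10.58, with the nearest young sample at 8.94, a gap that takes up 0.719 of the young range. Young 6 was the highest young sample for the dimmer Sar1b probe at 10.08, with the nearest at 9.25 and a gap share of 0.535.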

How the results depend on the processing

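The direction and the side of the threshold held for 205 of 216 values of single member probes under 24 other settings. The number of member probes past the threshold was 0 in the main setting and with the methods' t-test after adjustment, and 1 (Sec24a) without the intensity trend, and 0 to 1 when each sample was left out, Sec24a passing without young 7 and without aged 2. The median member difference of 0.50 became 1.00 under normexp correction and 0.17 with no filter on dim probes, where 13 probes entered, and ran from 0.36 to 0.64 over the samples left out. For the lists of other pathway genes the count of 1, Xbp1, became 0 with scaling to the 75th percentile, normexp correction, no filter on dim probes, the deposited processed values, the methods' t-test, first arrays only or the replicate block, and ran from 0 to 4 over the samples left out. The cause of these changes was not tested. The dimmer Sar1b probe turned to -0.0575 with first arrays only and ran from -0.0801 to 0.167 over the samples left out, and Sec31a ran from -0.0215 to 0.112. Of all probes, 153 passed in the main setting, 89 with scaling to the 75th percentile, 45 with no filter on dim probes, 99 with the methods' t-test (1492 at its unadjusted threshold), 59 with the replicate block, and 40 to 317 over the samples left out, the extremes being without aged 3 and without aged 2. Of the called probes 76.5% were higher in aged ASCs, and 92.1% with scaling to the 75th percentile.

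The labels do not say whether the 6 shared sample numbers pair the groups. Same-numbered deviations correlated at -0.0961 to 0.232, and 2 of 6 young samples matched their own number best. With so few numbers a pairing is neither shown nor excluded. With the replicate block 0 member probes passed and their median was 0.54. A slide block was not run, because the files used name no slide. Sec31a, Sec24a and Lman1 lay nearest to background.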

Other observations

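A pair of probes that the platform annotation does not tie to a member symbol appear in the study's own probe list, one under Sec24a and the other beside Sec23b. They were chosen by the study on these same samples, so no test is given. The Sec24a probe of that list passed detection in 5 of 6 aged and in 0 of 9 young samples, with a signal of 7.90 to 8.24 in young ASCs, 7.86 in aged 2 and 8.53 to 8.98 in the other aged samples. The probe listed beside Sec23b, with detection in 4 of 6 aged and 1 of 9 young samples, ran from 7.70 to 8.24 in young and from 8.22 to 8.57 in aged ASCs.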
